A study of Mus musculus with 6 samples.

Results

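The activator protein 1 (AP-1) and BATF transcription factors expressed by mouse CD8+ T cells were examined as a set of 10 genes, found in the count table by their symbols. They were Fos, Fosb, Fosl1 and Fosl2 of the Fos subfamily, Jun, Junb and Jund of the Jun subfamily, and Batf, Batf3 and Atf3. All 10 were among the 16281 genes of the table, and 9 were among the 11698 genes with enough reads to be tested, the exception being Fosb. The samples were 3 vehicle (Veh) and 3 GSK2879552 (GSK) cultures of splenic CD8+ T cells from OT1 mice on the C57BL/6 strain. Both groups had the same stated stimulation and expansion, while whether they shared mice or handling is not given in the sources used here. OT1 mice carry the T-cell receptor transgene Tg(TcraTcrb)1100Mjb, so that nearly all their CD8+ T cells recognize the same ovalbumin peptide. GSK is an irreversible inhibitor of the histone demethylase LSD1, and 0.5 μM was present throughout the 48 h of stimulation with anti-CD3 and anti-CD28 antibodies and the 3 days of expansion in IL-2. The RNA was thus taken 3 days after receptor stimulation had ended, and earlier times were not analysed here.

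AP-1 factors are dimers of basic leucine zipper (bZIP) proteins. Fos proteins bind DNA only in a dimer with a partner, usually a Jun protein, whereas Jun proteins can also pair with each other. Genes such as Fos and Fosb are switched on within minutes of T-cell receptor and CD28 signalling through MAP kinases and are soon silent again. BATF and BATF3 lack the transactivation domains of Fos, pair with Jun proteins and bind composite elements together with IRF4 or IRF8, and in T cells BATF is needed for effector differentiation. ATF3 is a stress-induced bZIP protein that also pairs with Jun proteins.

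The counted reads summed to between 18288447 and 18918811 in the Veh samples and between 19149909 and 19846720 in the GSK samples. Kdm1a, which encodes LSD1, averaged 92.8 ± 5.45 CPM among Veh samples against 87.1 ± 3.54 CPM after GSK (mean ± SD, n = 3), and the groups overlapped. CPM is the usual depth-normalized count, here with the total of each sample scaled by TMM. The 10 markers of CD8 T cells summed to 4580 to 4690 CPM in Veh and 4670 to 4840 CPM in GSK. Single genes moved within this sum. At an adjusted p under 0.05 in edgeR's quasi-likelihood test, 30% of the 10 rose and 40% fell. Among all genes tested, 16.6% rose and 15.5% fell. Thy1, Cd2 and Lck rose, by 0.23, 0.15 and 0.125 on the log2 scale. Cd5, Cd3g and Cd3e fell most, by 0.50, 0.38 and 0.23. The summed markers of other cells were far lower, at 6.20 to 8.21 against 8.08 to 9.36 CPM for 8 B-cell genes and 11.7 to 16.5 against 10.3 to 13.7 CPM for 10 myeloid genes, of which S100a8, S100a9 and Csf3r were not listed. Most of the B-cell sum was Cd79b (6.51 CPM in Veh, 4.90 CPM in GSK), while Cd22 rose from 0.409 to 2.60 CPM (log2 fold change 2.65, adjusted p = 1.51e-04 in edgeR's quasi-likelihood test). Ms4a1, at 0 to 2 counts in Veh and 4 to 8 in GSK, and Cd79a, at 0 to 3 and 5 to 11 counts, were higher in each GSK sample. The 6 dendritic-cell genes summed to 3.27 to 4.84 CPM in Veh and 1.77 to 2.62 CPM in GSK, most of it Itgax, with Clec9a at 2 counts in 1 GSK sample and 0 in the rest. Itgax fell from 3.395 to 1.31 CPM (log2 fold change -1.37, adjusted p = 0.00229 in edgeR's quasi-likelihood test). The part of these cells in the results was not tested. The remaining sums were 1.58 to 2.39 against 2.38 to 3.78 CPM for 4 NK-cell genes, 43.9 to 53.2 against 40.7 to 45.9 CPM for 4 CD4 T-cell genes, and 0.210 to 0.272 against 0.101 to 0.365 CPM for 6 erythroid genes. Of the myeloid genes, Fcgr3 fell (log2 fold change -1.21, adjusted p = 0.0359 in edgeR's quasi-likelihood test). Cd40lg of the CD4 T-cell genes rose from 0.446 to 1.295 CPM (log2 fold change 1.52, adjusted p = 0.0181 in the same test).

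The promoters of Jun and Junb are shown because both genes fell in GSK and these sequences lie just before their annotated transcript starts. They are the 250 bases before the RefSeq start site in the GRCm38.p6 assembly, 5′ to 3′ on the gene's strand, for Jun (chr4:95052223-95052472, minus strand) and Junb (chr8:84978749-84978998, minus strand). Capitals mark the matches to the motifs described after them.
Jun: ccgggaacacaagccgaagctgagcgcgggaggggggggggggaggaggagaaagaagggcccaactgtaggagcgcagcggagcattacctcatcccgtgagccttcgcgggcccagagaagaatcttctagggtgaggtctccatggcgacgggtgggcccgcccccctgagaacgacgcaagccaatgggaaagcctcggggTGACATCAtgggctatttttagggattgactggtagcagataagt
Junb: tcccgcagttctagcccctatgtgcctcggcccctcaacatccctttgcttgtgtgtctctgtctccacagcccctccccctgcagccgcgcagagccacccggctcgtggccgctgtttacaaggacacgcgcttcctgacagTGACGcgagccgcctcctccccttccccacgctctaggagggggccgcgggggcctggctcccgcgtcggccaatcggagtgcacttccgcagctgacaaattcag

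The motifs were searched on both strands from 250 bases before to 50 bases after the start site. The AP-1 site TGANTCA was in none of the 9 members with a promoter sequence in the RefSeq table and in 7.81% of all 32851 promoters. The 1-base-longer TGACNTCA, bound by Jun dimers with ATF proteins, was in the Jun promoter alone, as TGACATCA beginning 45 bases before the start (chr4:95052260-95052267), and in 8.83% of all promoters. The shorter TGACG of cyclic AMP response elements, searched after the sequences had been seen, was in 5 of the 9, namely Fos, Fosb, Junb, Batf and Atf3, and in 20.8% of all promoters. In Junb it began 106 bases before the start. TGACG can be part of TGACNTCA, although it is not in Jun. The full element TGACGTCA (1.79% of all promoters), the CArG box bound by SRF (1.63%) and TGANTCA followed after 4 bases by GAAA (0.119%) as an arrangement of a BATF and IRF element, were in none of the 9. No match was found in the Fosl2, Jund and Batf3 windows. Start sites of RefSeq and GENCODE differ for some members. For Fosl2 the RefSeq window lies inside the first exon of the GENCODE transcript and its sequence is not shown, and for Jund it lies 1210 bases before the GENCODE start, so that for these genes the search did not cover the other annotation's promoter. Sites further than 250 bases before the start were not searched in any member. A motif absent from a window, such as the CArG box in Fos, can therefore lie beyond it. A match is a description of letters, and binding was not measured here.

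Jund was the most abundant member in both groups. Per kilobase of exon, which allows levels of different genes to be compared, Jund stood at 191 ± 16.9 CPM per kb in Veh and 190.4 ± 13.7 CPM per kb in GSK. These values divide by the GENCODE exon length of 1668 bases. With the RefSeq span of 2878 bases, a length tried after seeing the data, Jund was at 110.6 ± 9.79 and 110.3 ± 7.94 CPM per kb and still ranked first. Junb followed at 52.9 ± 2.27 and 46.9 ± 3.12 CPM per kb and Batf at 30.3 ± 0.985 and 29.3 ± 0.892 CPM per kb. Batf3, Fosl2, Jun and Atf3 came next, at Veh means of 14.9, 14.6, 7.82 and 3.53 CPM per kb. Fosl1, Fos and Fosb were close to the lower limit of the sequencing, at Veh means of 0.402, 0.297 and 0.0897 CPM per kb. The order of the means was identical in GSK.

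Most neighbours in this order had ranges over the 3 samples that were apart. In Veh, however, Batf3 (14.2 to 16.3 CPM per kb) overlapped Fosl2 (13.8 to 15.3 CPM per kb), and Fosl1 (0.350 to 0.489 CPM per kb) overlapped Fos (0.150 to 0.433 CPM per kb). In GSK, Batf3 (15.9 to 19.3 CPM per kb) lay above Fosl2 (11.3 to 12.2 CPM per kb) in all 3 samples, and Fosl1 lay above Fos.

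**Figure D1:**
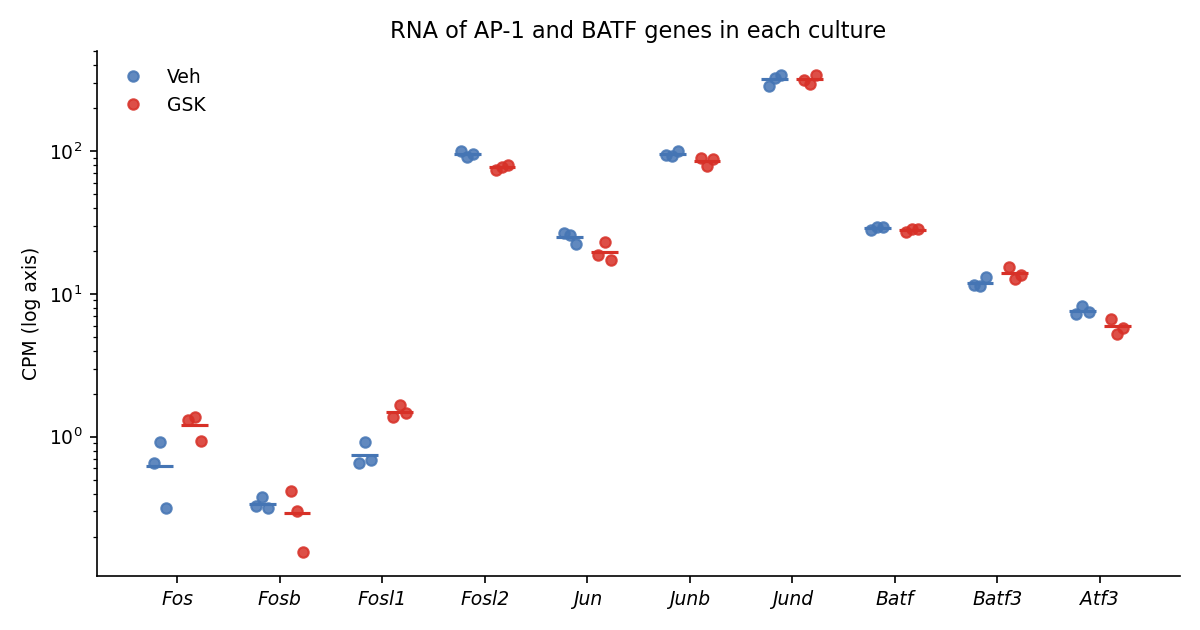
Normalized level of each member in every sample, in CPM on a log axis, with blue points for the 3 Veh and red points for the 3 GSK samples and a short line at each group mean. Jund lies near 318 CPM in both groups, Fosl2 and Junb near 95 CPM in Veh and lower in GSK, and Fos, Fosl1 and Fosb lie below 2 CPM.

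As shares of the summed level of all 10 members per kilobase, Jund made up 58.3% to 61.6% in Veh and 61.2% to 63.7% in GSK, or 44.8% to 48.1% and 47.7% to 50.4% with the longer Jund length. The Jun subfamily together held 78.7% to 80.3% in Veh and 78.6% to 80.4% in GSK. BATF-type genes and Atf3 together held 15.2% to 15.8% in Veh and 15.4% to 16.7% in GSK. The Fos subfamily, nearly all of it Fosl2, held 4.56% to 5.44% in Veh and 4.12% to 4.65% in GSK. Within these totals, the share of Batf3 was higher in every GSK sample (5.26% to 6.27%) than in any Veh sample (4.47% to 4.87%), and that of Fosl2 was lower (3.65% to 4.09% against 4.35% to 5.19%). The share of Junb was also lower in every GSK sample (15.0% to 15.9%) than in any Veh sample (16.2% to 17.5%), and so was that of Atf3 (0.838% to 1.01% against 1.03% to 1.2%). The small shares of Fosl1 (0.237% to 0.310% against 0.11% to 0.154%) and Fos (0.139% to 0.224% against 0.0448% to 0.136%) were higher. These 6 members were on the same side with the longer Jund length, while Jund, Jun, Batf and Fosb overlapped with either length. By CPM the groups overlapped for Batf3 (adjusted p = 0.148 in edgeR's quasi-likelihood test). Of all genes tested, 23.7% lay fully above and 23.0% fully below by CPM, and no such background was taken for shares. The shares of a sample add up to a fixed total and are not independent of each other.

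**Figure D2:**
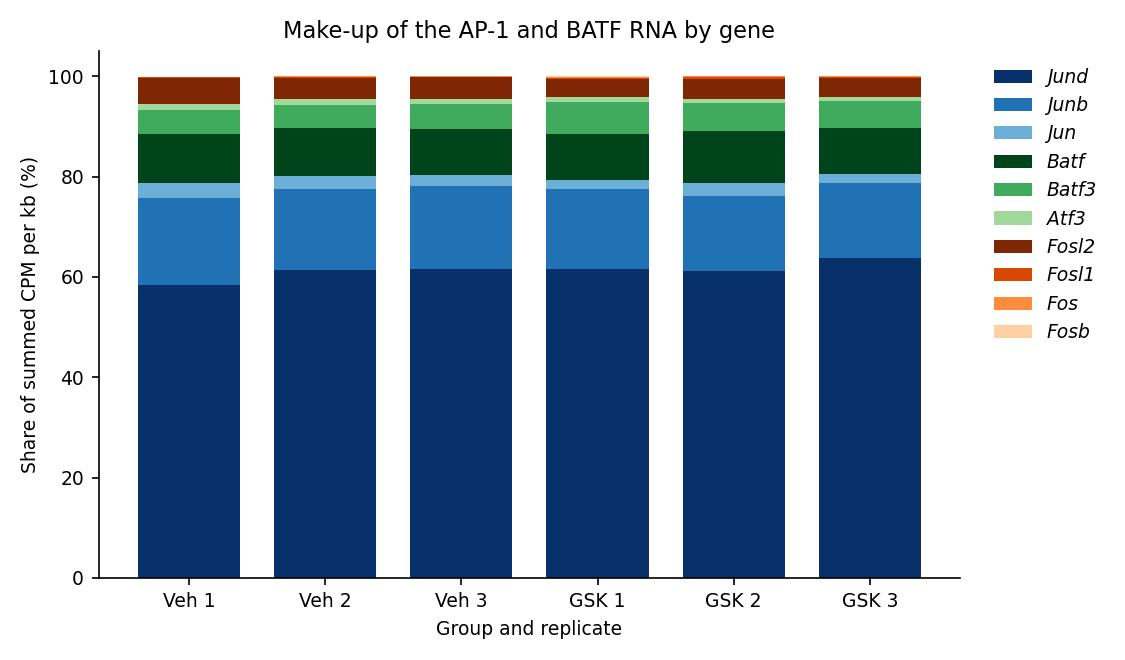
Share of each member in the summed level of the 10 members per kilobase of exon, in percent, for each of the 3 Veh and 3 GSK samples. With the GENCODE exon length, Jund fills 58.3% to 63.7% of every bar and Junb 15.0% to 17.5%.

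Between GSK and Veh, 1 member rose and 3 fell at an adjusted p under 0.05 (edgeR's quasi-likelihood test, Benjamini-Hochberg adjustment over the 11698 genes tested). Fosl1 was the member that rose, and Fosl2, Jun and Junb were those that fell. Of all genes tested, 16.6% rose and 15.5% fell at this threshold. The member that rose made up 11.1% of the 9 tested members, below that background, and the 3 that fell made up 33.3%, above it, over too few genes to set the list apart. At a fold change over 1.5 as well, the thresholds of the study, Fosl1 remained, at 1.99-fold, whereas the 3 decreases were all smaller than 1.5-fold. This was passed by 2.22% of all genes in the direction of higher and 4.09% in the direction of lower expression. The study applied these thresholds with DESeq2, and with DESeq2 here Fosl1 missed them (adjusted p = 0.0948). All 3 GSK samples lay above all 3 Veh samples for Fosl1 and Fos (23.7% of all genes did so) and below them for Fosl2, Junb and Atf3 (23.0% of all genes). The other 4 tested members overlapped.

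With 3 samples against 3, an exact two-sided permutation test of a single gene cannot reach a p under 0.10, so members were tested in the fit over the whole table alone. The labels leave unstated whether replicates are separate animals (the paper speaks of separate mice). The p-values set a group difference against the spread between these samples, with the estimate of that spread moderated across genes. In RNA from whole cultures, fewer cells expressing a gene and less RNA per cell cannot be told apart.

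Fosl2 (Fra-2), a Fos-subfamily protein that is induced late and lasts longer than Fos, was the member with the smallest p and the only abundant gene of its subfamily. It lies at chr5:32136472-32157840 on the plus strand. Its level was 100.2, 90.4 and 95.7 CPM in Veh replicates 1, 2 and 3, and 73.6, 77.3 and 79.6 CPM in GSK. Each GSK sample was below each Veh sample, with a gap between the groups larger than the range within either of them. The mean fell by 19.5%, from 95.4 ± 4.91 to 76.8 ± 3.06 CPM, with a log2 fold change of -0.31 (SE 0.054, 95% interval -0.43 to -0.20) and an adjusted p of 9.41e-04. Fosl2 stayed below 0.05 when any single sample was left out, with adjusted p from 7.6e-04 to 0.0105.

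Fosl1 (Fra-1), the other Fra gene, was read at a small fraction of the level of Fosl2. The gene is at chr19:5447698-5455938 on the plus strand. It had 12, 17 and 13 counts in the Veh samples and 26, 33 and 28 counts in the GSK samples. All GSK counts were above all Veh counts, with means of 0.749 ± 0.142 CPM for Veh and 1.498 ± 0.156 CPM in the GSK group. The log2 fold change was 0.99 (SE 0.31, 95% interval 0.32 to 1.67) with an adjusted p of 0.0284 in edgeR's quasi-likelihood test. The call rests on few reads. It was lost with DESeq2 (adjusted p = 0.0948) and without any single sample other than Veh replicate 2, with adjusted p of 0.0999 without Veh 1, 0.0844 without Veh 3, 0.0592 without GSK 1, 0.081 without GSK 2 and 0.0611 without GSK 3. RefSeq places Ccdc85b across the 3′ end of Fosl1 (chr19:5453163-5457563), and whether reads were counted by strand is not given in the sources used here, so that the Fosl1 count is uncertain. Ccdc85b itself averaged 15.4 ± 0.588 CPM (Veh) and 17.2 ± 0.520 CPM (GSK), with a log2 fold change of 0.16 and an adjusted p of 0.181.

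Fos, the founding member and an immediate early gene, was nearly silent at this time. It is at chr12:85473890-85477274 on the plus strand. The Veh samples had 12, 17 and 6 counts and the GSK samples 25, 27 and 18. Every GSK count was above every Veh count, although by 1 read at the closest pair. The log2 fold change was 0.94 (SE 0.40, 95% interval 0.08 to 1.80), and its adjusted p of 0.088 missed the threshold in edgeR's quasi-likelihood test. Counting error alone gives a coefficient of variation of 29.3% for Fos in Veh and 20.7% in GSK. Fosb (chr7:19302696-19310118, minus strand), another immediate early gene, had 6, 7 and 6 counts in Veh and 8, 6 and 3 in GSK, and the groups overlapped. Fosb did not pass the filter on low counts. Without the filter its log2 fold change was -0.20 with a 95% interval from -1.53 to 1.12, and a difference in Fosb was not detectable at this depth.

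Jun (c-Jun), the Jun-subfamily member with strong transactivation, fell in GSK to 0.789 times its Veh level. Its single exon is at chr4:95049036-95052222 on the minus strand, downstream of the promoter with the TGACATCA match. The level was 26.8, 25.8 and 22.2 CPM in the Veh samples and 18.7, 22.9 and 17.4 CPM in the GSK samples. The groups overlapped, since GSK replicate 2 was above Veh replicate 3. The means were 24.9 ± 2.44 and 19.7 ± 2.90 CPM, and the log2 fold change was -0.34 (SE 0.11, 95% interval -0.58 to -0.10) with an adjusted p of 0.0312 in edgeR's quasi-likelihood test. Without Veh 1, Veh 2, GSK 1 or GSK 3, the adjusted p rose to 0.119, 0.0927, 0.113 and 0.0964. Without GSK 2 it was 0.00221.

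Junb, a Jun-subfamily protein that weakens activation by c-Jun on many promoters, fell by 11.4%. It also has a single exon, at chr8:84976909-84978748 on the minus strand. Its level was 93.8, 92.9 and 100.4 CPM in Veh and 88.7, 78.3 and 87.4 CPM in GSK. All GSK samples were below all Veh samples, and GSK 1 and Veh 2 were the closest pair. The log2 fold change was -0.17 (SE 0.058, 95% interval -0.30 to -0.05) with an adjusted p of 0.0345 in edgeR's quasi-likelihood test. The adjusted p rose to 0.0617 without Veh 1, 0.145 without Veh 3 and 0.0955 without GSK 2.

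Jund, which is expressed in most cells without stimulation, lies at chr8:70697739-70700616 on the plus strand in RefSeq, and its single GENCODE exon begins 1210 bases further in. It was at 288, 325 and 343 CPM in Veh and 317, 295 and 341 CPM in GSK. The groups overlapped fully, with the GSK samples inside the range of the Veh samples. The log2 fold change was -0.0039 (SE 0.069) with an adjusted p of 0.97 in edgeR's quasi-likelihood test, and its 95% interval, -0.16 to 0.15, corresponds to a fold change between 0.896 and 1.11. Its spread was not set by depth, since the coefficient of variation was 8.85% in Veh and 7.20% in GSK where counting error gives 1.30% and 1.28%.

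**Figure D3:**
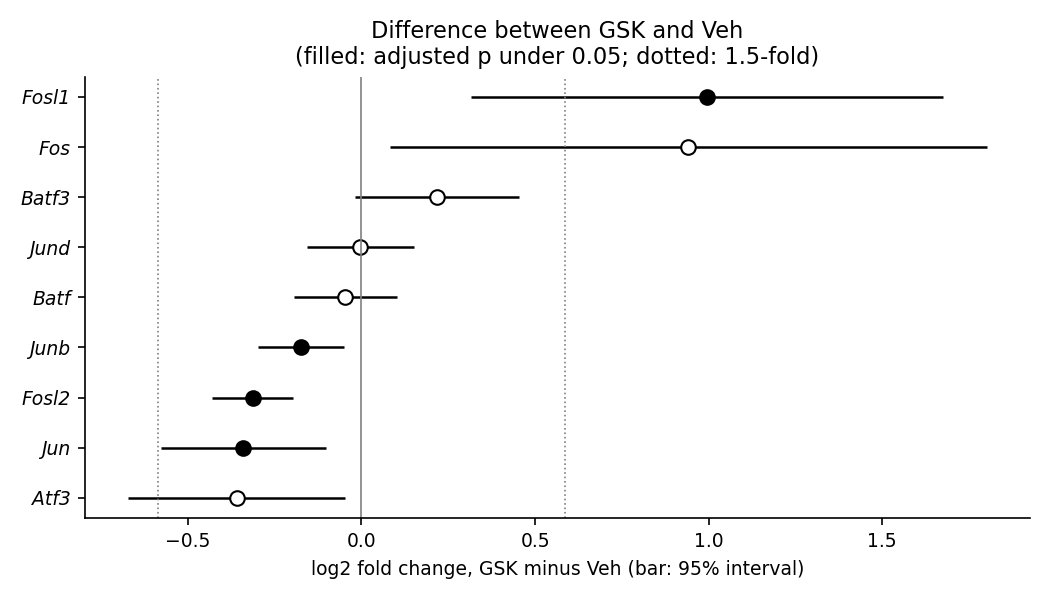
Log2 fold change of GSK against Veh for the 9 tested members, with 95% intervals from edgeR's quasi-likelihood fit, a grey line at 0 and dotted lines at a fold of 1.5, and filled points for members past an adjusted p of 0.05. The intervals of Fosl2, Jun, Junb and Atf3 lie below 0 and those of Fosl1 and Fos above it, while Jund, Batf and Batf3 span 0. The intervals are not adjusted for the number of genes.

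Batf, at chr12:85686720-85709087 on the plus strand, was at 27.9, 29.3 and 29.6 CPM in Veh and 27.0, 28.6 and 28.4 CPM in GSK. The groups overlapped. Its log2 fold change of -0.05 (SE 0.069, adjusted p = 0.642 in edgeR's quasi-likelihood test) had a 95% interval of fold changes from 0.874 to 1.07, so that a change of 1.5-fold lies outside it.

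Batf3, the relative of Batf known for its role in dendritic cells and in CD8 T-cell memory, is at chr1:191098414-191108943 on the plus strand. It was at 11.5, 11.4 and 13.03 CPM in Veh and 15.5, 12.8 and 13.5 CPM in GSK. GSK replicate 1 was the highest sample, and GSK replicate 2 lay below Veh replicate 3. The log2 fold change of 0.22 (SE 0.11, 95% interval -0.02 to 0.45) had an adjusted p of 0.148 in edgeR's quasi-likelihood test, with 0.0867 to 0.459 over the alternatives. Atf3, at chr1:191170296-191183333 on the minus strand, was at 7.18, 8.21 and 7.41 CPM in Veh and 6.72, 5.26 and 5.79 CPM in GSK. All Atf3 values in GSK were below those in Veh, from a mean of 7.60 ± 0.539 to 5.92 ± 0.738 CPM. Its log2 fold change of -0.36 (SE 0.14, 95% interval -0.67 to -0.05) missed the threshold with an adjusted p of 0.074, and it did so under every alternative, from 0.059 to 0.207.

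**Figure D4:**
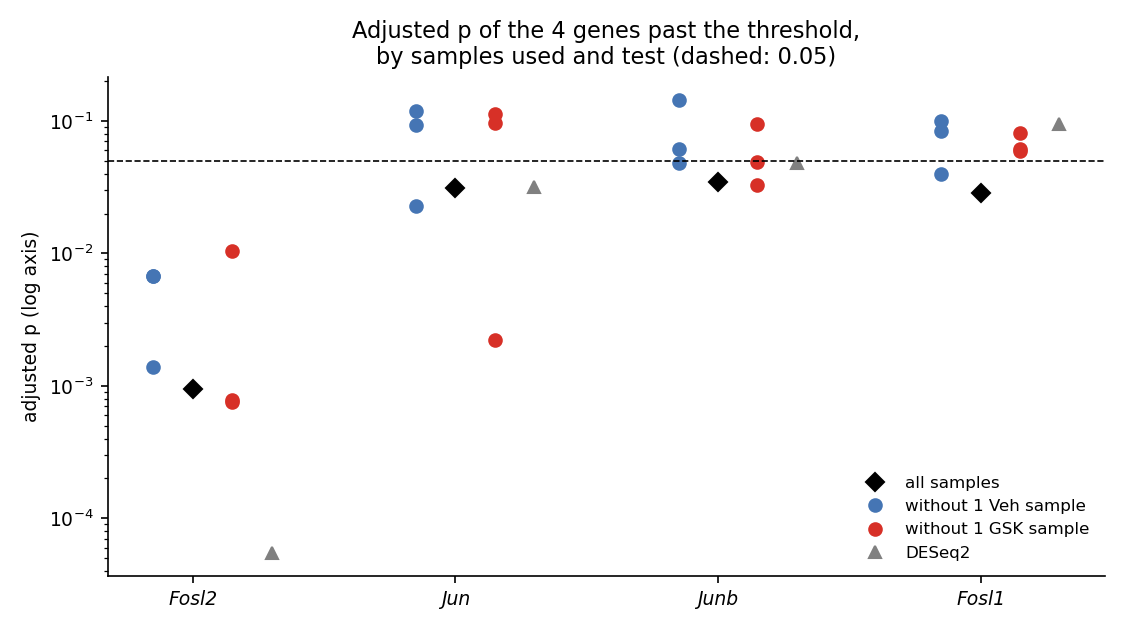
Adjusted p, on a log axis, of the 4 members past the threshold. Black diamonds show the fit with all samples, blue and red circles the fits without 1 Veh or 1 GSK sample, and grey triangles DESeq2. All points of Fosl2 lie under the dashed line at 0.05, whereas Jun, Junb and Fosl1 have points on both sides of it.

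Some of the members lie close to each other. Fos and Batf are 209.4 kb apart on chromosome 12 with Jdp2, a bZIP repressor of AP-1, as the only coding gene between them. Jdp2 averaged 9.49 ± 0.603 CPM (Veh) and 8.54 ± 1.12 CPM (GSK), a difference within the spread (log2 fold change -0.15, adjusted p = 0.401 in edgeR's quasi-likelihood test). Batf3 and Atf3 are 61.4 kb apart on chromosome 1, with log2 fold changes of 0.22 and -0.36 that both missed the threshold. The difference between these neighbours was not tested.

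Among the coding genes next to the members that changed, Hook2, which lies 10028 bases from Junb on chromosome 8 and encodes a microtubule linker, also fell, from 11.4 ± 0.333 to 8.65 ± 0.506 CPM (log2 fold change -0.39, adjusted p = 0.016 in edgeR's quasi-likelihood test). Prdx2 on the other side of Junb had a log2 fold change of -0.09 and an adjusted p of 0.176. No tested coding gene next to Fosl1, Fosl2 or Jun passed the threshold in this test. The adjusted p was 0.165 for AI837181 and 0.0839 for Fibp beside Fosl1, and 0.437 for Babam2 beside Fosl2. Beside Jun it was 0.156 for Mysm1 and 0.135 for Fggy. Of all genes tested, 16.6% rose and 15.5% fell. Plb1, the phospholipase gene 74851 bases beyond Fosl2, had 0 counts in all 3 Veh samples and 13, 35 and 3 counts in the GSK samples. Against a floor of 3 counts over the Veh group, Plb1 was at least 16.4-fold higher in GSK. This bound rests largely on GSK replicate 2, without which it was 7.82-fold. Plb1 did not pass the filter on low counts. Without the filter, its adjusted p in edgeR's quasi-likelihood test was 0.0112, and 0.142 with GSK replicate 1 also left out. Next to Jund, Lsm4 rose by a log2 fold change of 0.18 (adjusted p = 0.0104 in edgeR's quasi-likelihood test). The other tested neighbours of the members that missed the threshold did not pass it either.

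The genes whose pattern over the 6 samples was nearest to Fosl2, by root mean square difference of mean-centred log2 CPM, were Phka2 (0.0269), Zfp935 (0.0273) and Gpr108 (0.0274), where the median of 11697 genes was 0.212. Nearest to Fosl1 were Spats2 (0.105), Cdkn2a (0.107) and Fcmr (0.115), with a median of 0.499. These are descriptions of likeness over 6 samples.

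Partners with which BATF and AP-1 bind DNA are known in T cells, and 9 of them were compared. Of these, 3 rose and 4 fell, with a median log2 fold change of -0.10 where that of all genes tested was -0.0039. That is 33.3% and 44.4% of the 9, against 16.6% and 15.5% of all genes tested, over too few genes to set the list apart. This list and those below were chosen with earlier results of these data known. Their shares beside all genes are therefore descriptions and not independent evidence. Irf4, the factor that shares composite elements with BATF, rose from 182 ± 10.9 to 267 ± 17.9 CPM (log2 fold change 0.55, SE 0.057, adjusted p = 3.32e-05 in edgeR's quasi-likelihood test). The calcium-activated factor NFAT1, encoded by Nfatc2, rose by 0.28 on the log2 scale and Irf8 by 0.19. Among those lower, Runx3, a factor of CD8 lineage identity, and Runx1 each fell by 0.29 and Ets1 fell by 0.18 on the log2 scale. Irf4 and Irf8 rose while the difference in Batf missed the threshold.

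Of 40 other bZIP genes, 30 were tested, 8 rose and 7 fell, with a median log2 fold change of -0.10. As shares of those tested, 26.7% rose and 23.3% fell, against 16.6% and 15.5% of all genes. Bach2, a repressor that occupies AP-1 sites and restrains effector differentiation, fell from 69.9 ± 4.97 to 45.3 ± 6.35 CPM (log2 fold change -0.63, adjusted p = 6.81e-04 in edgeR's quasi-likelihood test). Maf, which encodes c-MAF, rose from 6.03 ± 0.0940 to 10.8 ± 3.44 CPM (log2 fold change 0.84, adjusted p = 0.00921). Tef and Dbp, both PAR bZIP genes with daily rhythms in many tissues, moved in opposite directions, with log2 fold changes of 0.70 and -0.61. These 4 were the bZIP genes past both thresholds. Cebpb, an inducible C/EBP factor, rose by 0.44 and Ddit3 (CHOP) fell by 0.55 on the log2 scale. The 36 genes with a bZIP annotation in the deposited table other than the members gave 7 higher and 6 lower of 28 tested (25% and 21.4%).

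Among 31 genes of the signalling routes to AP-1, 30 were tested, of which 5 rose and 8 fell, with a median log2 fold change of -0.02. These counts are 16.7% and 26.7% of those tested, against 16.6% and 15.5% of all genes. Map2k6, a kinase that activates p38, fell from 14.1 ± 1.95 to 6.66 ± 0.866 CPM (log2 fold change -1.08, adjusted p = 1.28e-04 in edgeR's quasi-likelihood test). Map3k1, a kinase upstream of JNK, fell from 144 ± 2.90 to 98.0 ± 8.60 CPM (log2 fold change -0.55, adjusted p = 3.22e-05), and Elk4, a partner of SRF, fell by 0.43 on the log2 scale. Srf, Hras and Map2k4 rose by 0.31, 0.32 and 0.22 on the log2 scale. RNA levels of kinases do not report their activity.

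The 26 other immediate early genes were all tested, and 7 rose and 6 fell, with a median log2 fold change of -0.01. That is 26.9% and 23.1%, against 16.6% and 15.5% of all genes tested. Dusp1, a phosphatase that switches off MAP kinases, rose from 10.4 ± 0.952 to 20.97 ± 2.01 CPM (log2 fold change 1.01, adjusted p = 2.79e-05 in edgeR's quasi-likelihood test). Dusp4, another phosphatase of this kind, rose by 0.98 and Egr2, which dampens receptor responses, by 0.92 on the log2 scale. Egr1 had a log2 fold change of 1.33, with overlapping groups and an adjusted p of 0.0934. Klf2, a quiescence factor, fell from 61.8 ± 9.27 to 29.8 ± 5.21 CPM (log2 fold change -1.05, adjusted p = 0.00304). Btg2, an antiproliferative gene, and Per1, a clock gene, fell by 0.74 and 0.46 on the log2 scale.

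Of 22 T-cell genes with regulatory DNA known to receive AP-1 or BATF input, 14 were tested, 9 rose and 2 fell, with a median log2 fold change of 0.52. Of those tested, 64.3% rose and 14.3% fell, against 16.6% and 15.5% of all genes. This list held genes already known to move in these samples, so that its direction is not independent evidence. Mmp9, Il10 and Ifng rose most, by 1.36, 2.17 and 1.39 on the log2 scale, and Ctla4 and Pdcd1 were the 2 that fell, by 1.36 and 0.92. The Mmp9 value rests on few reads, at 7, 8 and 12 counts in Veh and 21, 19 and 32 in GSK. Il2 had too few reads to be tested, at 7, 4 and 1 counts in Veh and 7, 0 and 2 in GSK.

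**Figure D5:**
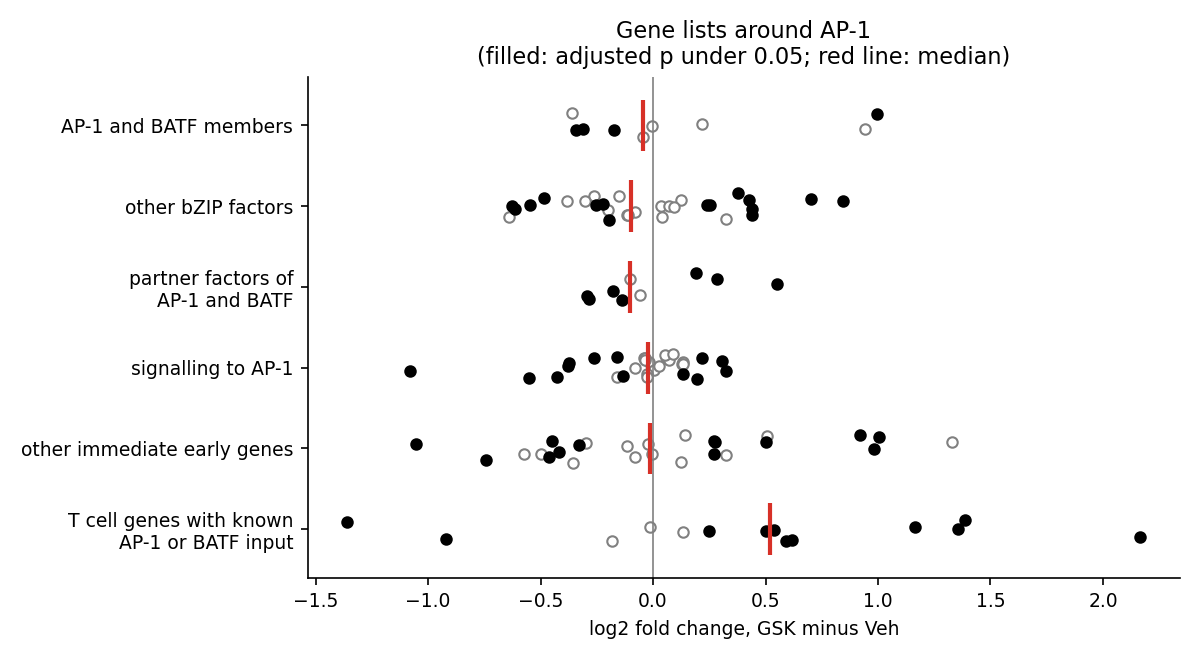
Log2 fold change of GSK against Veh for each tested gene of the members and the 5 lists around them, with filled points for an adjusted p under 0.05 and a red line at each list's median. The points of the members and of 4 lists spread to both sides of 0 with medians between -0.10 and -0.01, and the T-cell genes have a median of 0.52.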

How the data were processed

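RNA of CD8+ T cells was sequenced from 3 Veh and 3 GSK cultures. The authors enriched polyadenylated RNA, made stranded libraries, trimmed reads with Trimmomatic, mapped them to GRCm38 with HISAT2 (version 2.1.0) and counted reads per gene with HTSeq (version 0.11.2), per the submitters' processing notes. The deposited values are raw counts, without normalization. The authors' own tools also included Cufflinks (version 2.2.1) and DESeq2 (version 1.22.2). The annotation release and the strand setting of the counting are not given in the sources used here, so overlapping genes are uncertain.

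The comparison of counts used edgeR (version 4.0.16, R version 4.3.3), as a robust quasi-likelihood fit over all 6 samples without covariates, with TMM scaling, edgeR's filter on low counts (10 counts at the median total, 0.525 CPM) and Benjamini-Hochberg adjustment over 11698 genes. Standard errors were derived from the F statistic. The threshold was an adjusted p of 0.05, with a fold of 1.5 where stated. Total counts of 18288447 to 19846720 limit the precision of genes with few reads, and intervals quoted for counting error cover that error only. No replicate pair agreed within sampling noise (chi-square per degree of freedom 4.07 to 9.38).

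Levels per kilobase used the union of exons in GENCODE M21 (15729 of 16281 genes). Positions and promoters came from RefSeq tables (GRCm38.p6), matched by Entrez identifier (16197 of 16281 genes) and by symbol (9 of 10 members). The genes named are the members, Kdm1a, the 3 nearest patterns of 2 members, and bZIP and partner genes past both thresholds. Also named are up to 3 highest and 3 lowest genes past the adjusted p in each list, overlapping genes and coding genes next to a changed member. Of the genes next to other members, only Jdp2, which lies between 2 of them, and Lsm4, which passed the threshold, were named. Egr1, Il2, Itgax, Clec9a, Cd22, Cd79a, Cd79b and Ms4a1 were named after their values were seen. The members and lists were chosen with earlier results of these data known.

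Alternatives were RLE size factors, 2 other filters, DESeq2 (version 1.42.0), the replicate number as a block, a test of the fold against 1.5 and leaving out each sample. A longer Jund length and the Plb1 bound without each GSK sample were added after seeing the data. The fits were tested on simulated data.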

Additional observations from a re-analysis of the deposited data

How the results depend on the processing

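Of 98 alternative log2 fold changes of the members, 82 kept their direction and their side of the threshold, 13 kept the direction but lost the call and 3 reversed. The reversals were those of Jund without Veh 2, without Veh 3 and without GSK 2, where its log2 fold change over the fits without a sample ranged from -0.0717 to 0.0533 around the reported -0.0039. The number of members higher in GSK was 1, and it was 0 with DESeq2 (1 member, Fosl1, passed 0.05 before adjustment) and 0 to 1 without each sample, where edgeR gave 1 or 2 members before adjustment. The share of all genes past 0.05 before adjustment was not counted. In the main fit it cannot be below the 16.6% that rose at the adjusted p. Counts before adjustment therefore do not restore the call of Fosl1. The number lower was 3 and ranged from 1 to 2 without each sample, 1 being the fit without Veh 1. A fit without a sample has fewer samples, and its spread is estimated from 5. The genes past both thresholds numbered 739, and 134 under a test of the fold against 1.5, which asks for more than a fold estimate over 1.5. In the fit that added a replicate block, 3303 genes passed the adjusted p (3760 without) and 700 passed both thresholds, and members stood at 1 higher and 3 lower, so the block moved no call of a member. Whether same-numbered cultures came from the same mouse is not given in the sources used here. Same-numbered samples deviated with correlations of -0.052, -0.081 and 0.16 across genes, of which 1 of 3 exceeded 0.1. Without differently numbered samples for comparison, these values cannot decide whether the numbers are pairs. The main fit left the samples unpaired, with the block as an alternative. RLE size factors shifted the median log2 fold change of all genes from -0.0039 to -0.0048. Depth limited Fos, Fosb and Fosl1, which had 3 to 33 counts per sample. With the RefSeq span as the length of Jund, chosen after seeing the data, its level was 110.6 (Veh) and 110.3 (GSK) CPM per kb in place of 191 and 190.4.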
